A study of Rattus norvegicus with 16 samples.

Results

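The transcripts examined here code for the fibrous and sheet-forming proteins of the extracellular matrix. They were chosen by a rule on names, which was set with earlier results of these data known. They are the genes whose symbol is that of a collagen chain (Col and a number) or of a laminin chain (Lama, Lamb or Lamc and a number), together with Lum, Dcn, Ogn, Bgn, Fmod, Fn1 and Sparc. Of 14324 genes with exactly 1 symbol on the arrays, 39 met this rule, namely 25 collagen chains, 7 laminin chains, 5 small leucine-rich proteoglycans and 2 matrix glycoproteins. A gene with several array rows was represented by the row with the highest mean, which mattered only for Col6a4 with its 3 rows. The study asked how the brain of aged rats responds to curcumin in the diet. Male Sprague-Dawley rats, 15 months old at the start, ate control chow or the same kind of chow with curcumin for 6 or 12 weeks, with 6 rats in each diet and duration. Hippocampus and cortex of 3 rats at a time were pooled for RNA and hybridised to Affymetrix arrays, which gave 8 groups (hippocampus or cortex, control or curcumin, 6 or 12 weeks) of 2 arrays each, 16 in all. An array thus stands for a pool of whole tissue pieces and not for a rat or a cell type, and rats killed after 12 weeks were also older than those killed after 6 weeks, so that duration, age and any difference in handling cannot be told apart.

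In the brain, collagens and small leucine-rich proteoglycans are made mainly by fibroblasts of the meninges and of larger vessels, while laminins and type IV collagen form the basement membranes under endothelial cells and at the pial surface. Collagen chains wind into triple helices that assemble into fibrils (types I, II, III, V and XI), into networks (type IV in basement membranes) or onto the surface of fibrils. Laminins are trimers of an alpha, a beta and a gamma chain, and the proteoglycans lumican, decorin, osteoglycin, biglycan and fibromodulin bind to collagen fibrils and set their spacing.

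All values are log2 intensities that the authors normalised with RMA, so that a difference of 1 between groups is a doubling. Array medians lay between 6.35 and 6.44. Differences were tested with limma, a linear model fitted here to all 27342 transcript clusters and all 16 arrays at once, and a gene was called where the p-value adjusted by Benjamini-Hochberg over all clusters was under 0.05. The p-values measure the spread between the 2 arrays of a group, which may be partly technical. Prox1 and C1ql2, markers of dentate granule cells, were higher in the hippocampal arrays by 1.57 and 1.84, and both passed, so the tissue labels held for them. Some arrays stood apart. Cortex control 6 weeks replicate 2 was high in olfactory bulb markers (mean of 7 markers 8.10, against 6.22 to 7.05 on the other cortical arrays) and in red blood cell genes (mean of 5 genes 7.28, against 5.97 to 6.62). Hippocampus control 6 weeks replicate 2 and hippocampus curcumin 6 weeks replicate 2 were high in choroid plexus markers (mean of 11 markers 8.38 and 7.90, against 5.93 to 6.56 on the other hippocampal arrays). Values that moved by much without one of these arrays are given beside the results they touch.

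Most of the 39 genes gave modest signals. The mean over 16 arrays was above 7 for 10 of them, between 6 and 7 for 22 and below 6 for 7, and 16 lay below the median signal of all clusters. Signal depends on the probes as well as on the RNA, so levels were not compared between genes. Among the fibril-forming chains, Col1a2 averaged 7.41 (SD 0.45, 16 arrays) and Col11a2 averaged 7.37 (SD 0.10). The chains that sit on fibrils included Col9a2 at 6.81 (SD 0.11) and Col16a1 at 6.68 (SD 0.10), and the type IV chains of basement membranes Col4a1 at 6.52 (SD 0.09) and Col4a3 at 6.49 (SD 0.10). Col10a1, a network-forming chain, averaged 6.26 (SD 0.18), and Col6a4, of the beaded filaments, 6.09 (SD 0.13). The membrane-spanning chains Col23a1 and Col13a1 averaged 6.99 (SD 0.15) and 6.17 (SD 0.13), and Col7a1 of anchoring fibrils 6.55 (SD 0.11). Lamb2, a beta chain of vascular basement membranes, averaged 7.25 (SD 0.21), and Lamc1, the gamma chain of most laminin trimers, 7.19 (SD 0.26). Osteoglycin (Ogn) averaged 7.28 (SD 0.69) and decorin (Dcn) 7.16 (SD 0.52). Sparc, a glycoprotein that binds collagen and calcium, averaged 10.21 (SD 0.31), and fibronectin (Fn1), which guides collagen assembly, 7.61 (SD 0.32). Over 16 arrays the SD was thus several times larger for Ogn and Dcn than for the type IV chains or Col11a2. The median SD of the 39 genes was 0.14, and that of all genes with 1 symbol was 0.13.

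**Figure D1:**
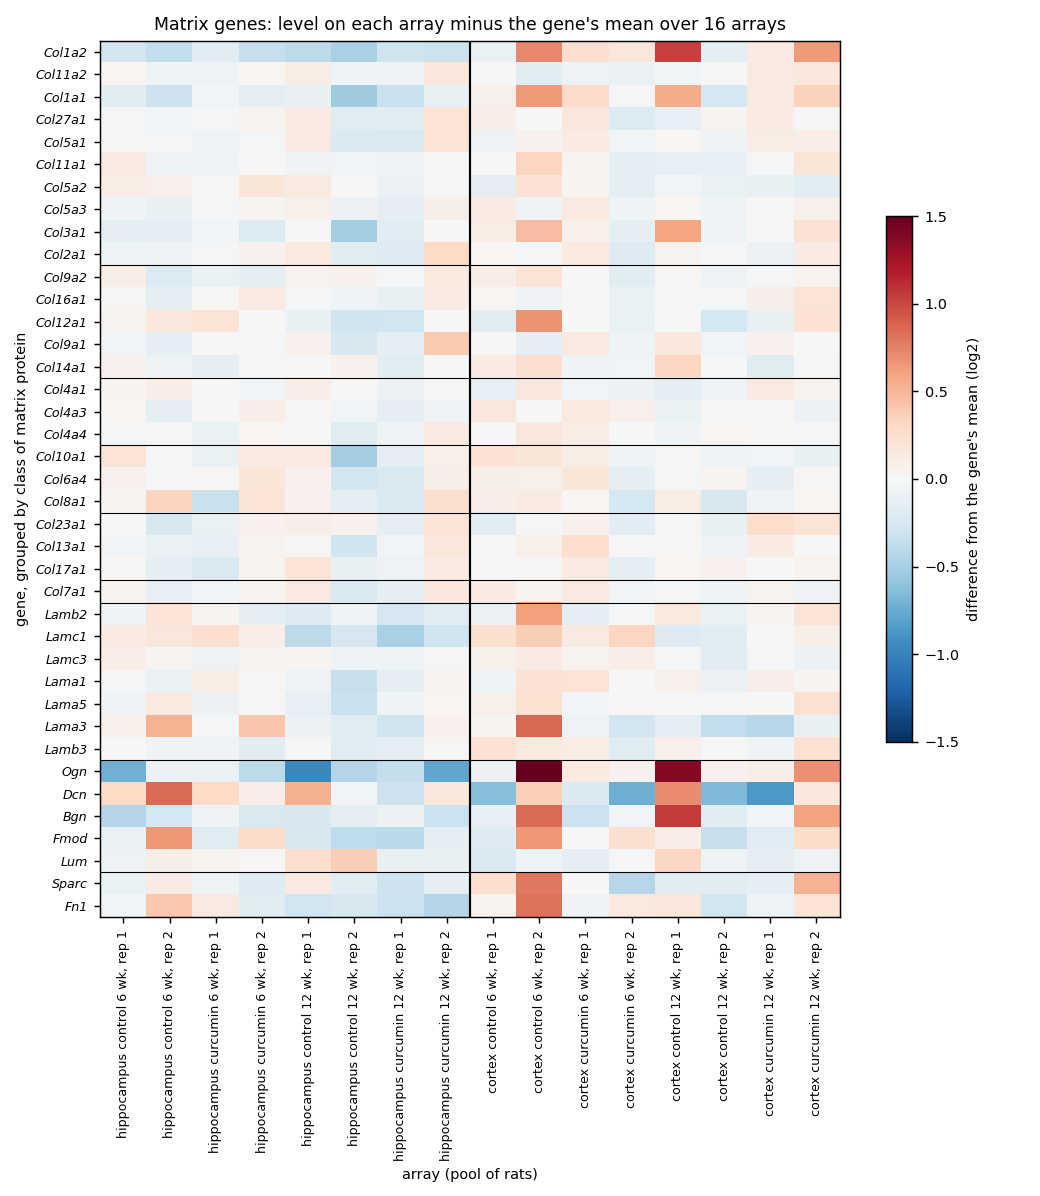
Level of each of the 39 matrix genes (rows, grouped by class of protein and separated by horizontal lines) on each of the 16 arrays (columns, hippocampus left of the vertical line and cortex right of it), as the difference from that gene's mean over 16 arrays on the log2 scale. In 3 cortical columns (control 6 weeks replicate 2, control 12 weeks replicate 1 and curcumin 12 weeks replicate 2) the rows of Ogn, Col1a1, Col1a2, Bgn and Fn1 lie above their means.

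Within the cortex, much of the spread lay between the 2 arrays of a group. Ogn was 8.78 on control 6 weeks replicate 2, 8.66 on control 12 weeks replicate 1 and 7.97 on curcumin 12 weeks replicate 2, and 7.19 to 7.43 on the other 5 cortical arrays. Both diets and both durations were among the high and the low arrays. The 3 arrays highest in Ogn were the 3 highest of the cortex for 8 of the 39 genes (Bgn, Col1a1, Col1a2, Col3a1, Dcn, Fn1, Lamb2 and Ogn), and for 2.13% of all genes with 1 symbol. Ogn is among the 8 by the choice of these arrays. They were the 3 highest as well for 9 of 21 measured markers of meningeal fibroblasts, among them the transporter genes Slc6a13 and Slc47a1 and the transcription factor gene Tbx18, for 3 of 13 markers of pericytes and smooth muscle (Tagln, Myh11 and Cnn1) and for 0 of 12 endothelial markers. The mean of the meningeal list was 7.19, 6.94 and 6.82 on these arrays in the order given, and 6.33 to 6.61 on the other cortical arrays. In bulk tissue, more cells of a type and more RNA per cell cannot be told apart, and the part of meningeal tissue in the matrix levels was not tested.

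Pairs of arrays of 1 group showed the size of this spread. Between the 2 cortical control arrays of 6 weeks the largest difference among the 39 genes was 1.59 (Ogn), and 9 genes differed by 1.5-fold or more, against 2.88% of all genes with 1 symbol. Dcn gave the largest difference between the cortical control arrays of 12 weeks (1.37) and between the cortical curcumin arrays of 12 weeks (1.005). In the 2 hippocampal curcumin groups and in the cortical curcumin group of 6 weeks, 0 of the 39 genes differed by 1.5-fold between the 2 arrays. By the size of the differences, cortical control arrays were therefore the most uneven for these genes, and the curcumin comparisons in the cortex rest on them. By direction, the hippocampal curcumin arrays of 12 weeks were the most one-sided. There 35 of the 39 genes were higher on replicate 2 (median of replicate 1 minus replicate 2 -0.20). Between the hippocampal control arrays of 12 weeks 30 were higher on replicate 1 (median 0.16). The curcumin comparison in the hippocampus after 12 weeks rests on both pairs. In the cortex 30 genes were also higher on replicate 1 of curcumin 6 weeks, and 30 on replicate 1 of control 12 weeks. The share of all genes was not taken for these directions, so they are no result about the matrix genes.

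Between the tissues, 3 of the 39 genes passed the test, all with lower levels in the hippocampus, while 9.67% of all clusters passed it. The share of matrix genes was thus near the background and not a result about them as a group. The 3 were Ogn, Col1a2 (a chain of type I collagen) and Lamc1. Of all 39, 32 had a negative difference (hippocampus minus cortex), with a median of -0.06, against 49.0% of all genes with 1 symbol. At an unadjusted p under 0.05, 8 of the 39 passed, beside 26.8% of all genes with 1 symbol.

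Col1a2 was the only gene of the 39 with all 8 hippocampal arrays below all 8 cortical arrays, which held for 1.61% of all clusters in either direction. Its level ran from 6.93 to 7.25 (median 7.08) in the hippocampus and from 7.27 to 8.44 (median 7.62) in the cortex. The gap between the nearest arrays was therefore very small, while the cortical range was wide. The mean difference was -0.67 (SE 0.17, limma adjusted p = 0.0263). Ogn ran from 6.32 to 7.20 (median 6.87) in the hippocampus and from 7.19 to 8.78 (median 7.40) in the cortex, and the highest hippocampal array lay just above the lowest cortical array. Its difference was -0.96 (SE 0.25, adjusted p = 0.0330). Lamc1 ran from 6.71 to 7.45 (median 7.11) and from 7.003 to 7.56 (median 7.31) in hippocampus and cortex. Its difference was the smallest of the 3 in size, -0.20 (SE 0.045, adjusted p = 0.0153), and the tissues overlapped.

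Col1a1, the other chain of type I collagen, differed by -0.44 (SE 0.13, adjusted p = 0.0523) and Col3a1, the chain of type III collagen, by -0.31 (SE 0.10, adjusted p = 0.0964), and neither passed. Bgn (biglycan) gave -0.45 (SE 0.19, adjusted p = 0.189) and Fn1 -0.24 (SE 0.12, adjusted p = 0.279). Dcn had the opposite sign, 0.47 (SE 0.24, adjusted p = 0.296), with 6.85 to 7.999 in the hippocampus and 6.30 to 7.86 in the cortex. Decorin and osteoglycin, both proteoglycans of the same family, thus had estimates on opposite sides of 0, of which only that of osteoglycin passed. The type IV chains Col4a1, Col4a3 and Col4a4 lay between -0.06 and 0.02. The intervals of 34 of the 39 genes lay within the limits of 1.5-fold higher and 0.66-fold.

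**Figure D2:**
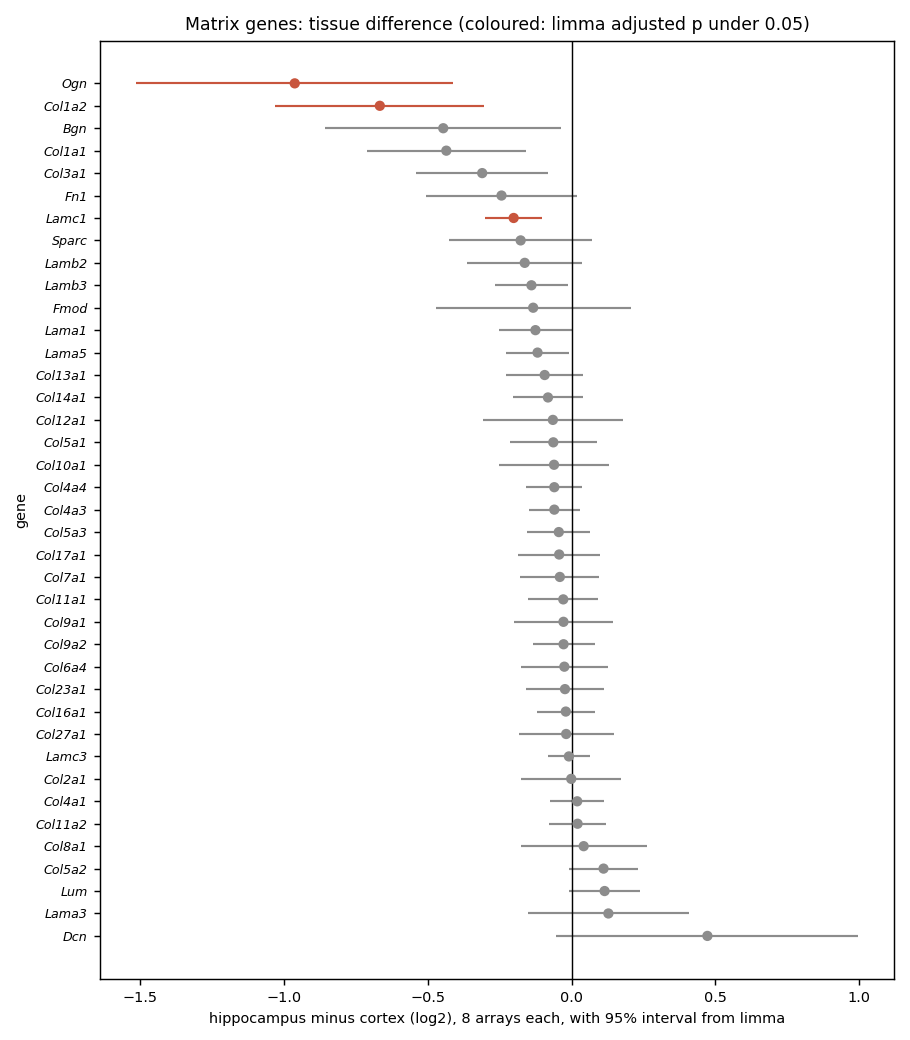
Difference between hippocampus and cortex (log2, mean over diets and durations, 8 arrays each) for the 39 matrix genes, ordered by size, with 95% intervals from limma. Coloured points mark the 3 genes that passed (Ogn -0.96, Col1a2 -0.67 and Lamc1 -0.20), all left of 0, and Dcn lies furthest to the right at 0.47.

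The tissue calls depended on single arrays. Lamc1 kept its call without any 1 of the 16 arrays. Col1a2 lost it in 8 of 16 such fits (adjusted p = 0.0521 to 0.0667), namely without hippocampus control 6 weeks replicate 1 or 2, hippocampus curcumin 6 weeks replicate 2, hippocampus control 12 weeks replicate 2, hippocampus curcumin 12 weeks replicate 1 or 2, cortex curcumin 6 weeks replicate 1 or cortex curcumin 12 weeks replicate 2. Ogn lost it in 10 of 16 (adjusted p = 0.0514 to 0.0812), and kept it only without hippocampus control 6 weeks replicate 2, hippocampus control 12 weeks replicate 2, cortex control 6 weeks replicate 1 or 2, cortex control 12 weeks replicate 2 or cortex curcumin 12 weeks replicate 1. Col1a1 passed without cortex control 6 weeks replicate 1 (adjusted p = 0.0242), hippocampus control 12 weeks replicate 1 (0.0449) or cortex control 12 weeks replicate 2 (0.00996), and Col3a1 without either of the last 2 (adjusted p = 0.0473 and 0.0219). Without the 2 cortical arrays with the highest Ogn, the differences of Col1a2 and Ogn shrank to -0.42 and -0.60 but passed, and that of Lamc1 was -0.19 (adjusted p = 0.0681). Without the 2 hippocampal arrays rich in choroid plexus markers (those with the highest Ttr), the differences were -0.63 for Col1a2, -1.01 for Ogn and -0.19 for Lamc1. The calls were lost in this fit, which has fewer arrays. The share of all clusters is not set beside it, so the loss is no result about the matrix genes.

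Markers of meningeal fibroblasts were examined on the same scale. Of 26 listed, 21 were measured, 20 had a negative difference between hippocampus and cortex and 7 passed. Of all genes with 1 symbol 49.0% were negative and 12.9% passed. Ptgds, a prostaglandin synthase of the leptomeninges that oligodendrocytes also express, gave -1.06 (SE 0.17, adjusted p = 0.00204). Aldh1a2, which makes retinoic acid, gave -0.84 (SE 0.22, adjusted p = 0.0330) and lost its call in 10 of 16 fits without 1 array, and the transporter genes Slc13a3 and Slc22a6 gave -0.66 (SE 0.12, adjusted p = 0.00521) and -0.51 (SE 0.10, adjusted p = 0.00783). The mean of the list ran from 6.20 to 6.46 on the hippocampal arrays and from 6.33 to 7.19 on the cortical arrays. Of 13 markers of pericytes and smooth muscle 1 passed (Notch3, -0.19), and of 12 endothelial markers 1 (Tie1, -0.21). Their part in the tissue difference of the matrix genes was not tested.

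**Figure D3:**
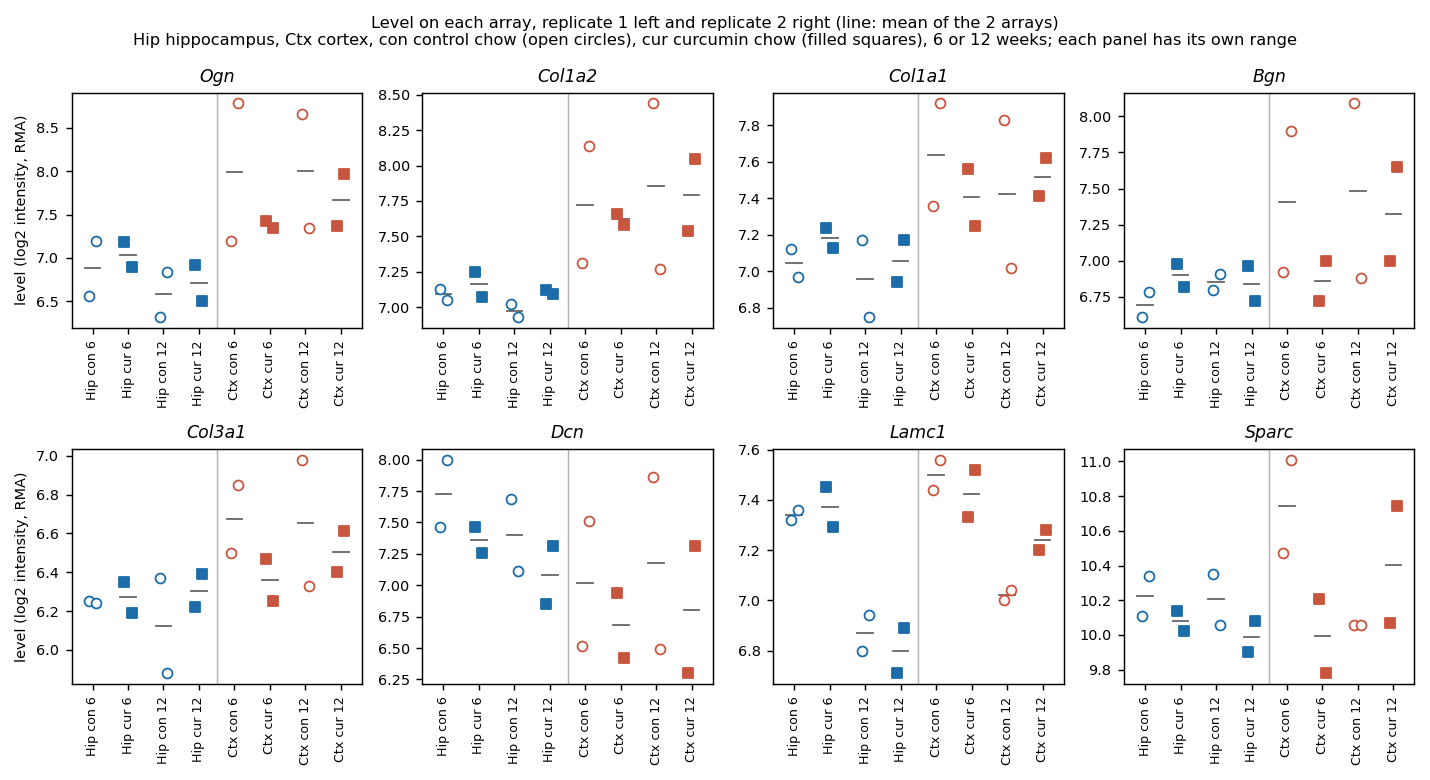
Level (log2 intensity) of 8 matrix genes on each array, in the hippocampus (blue, left) and the cortex (red, right), with control chow as open circles, curcumin chow as filled squares and a line for the mean of the 2 arrays of a group. In the cortex the fibroblast genes Ogn, Col1a2, Col1a1 and Bgn are high on 3 arrays of mixed diet and duration, while Lamc1 is lower after 12 weeks than after 6 weeks in both tissues and on both diets, by the least on cortical curcumin chow (-0.18).

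The sequences before the annotated start of the 3 genes that differed between the tissues are shown because these were the only ones of the 39 that passed that test. They were taken from RefSeq for the assembly GRCr8 and are printed 5′ to 3′ on the strand of the gene. Capitals mark 3 motifs searched on either strand, which are TATAAA of the classical core promoter, the box CCAAT bound by the factor NF-Y, and GGGCGG, the core of binding sites of Sp1. Neighbouring matches can overlap. Ogn is given at chr17:15258996-15259245 (minus strand, 250 bases up to the start), Col1a2 at chr4:33518307-33518416 (plus strand, 110 bases, from -250 to -141 counted from the start, with the bases nearer to the start not printed) and Lamc1 at chr13:68051987-68052236 (minus strand, 250 bases up to the start).
Ogn: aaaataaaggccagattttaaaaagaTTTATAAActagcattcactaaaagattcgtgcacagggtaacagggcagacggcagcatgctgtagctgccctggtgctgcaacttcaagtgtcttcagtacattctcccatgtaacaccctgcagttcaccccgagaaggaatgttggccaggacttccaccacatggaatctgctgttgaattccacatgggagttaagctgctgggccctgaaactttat
Col1a2: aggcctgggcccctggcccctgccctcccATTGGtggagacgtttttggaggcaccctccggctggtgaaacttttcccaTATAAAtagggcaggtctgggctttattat
Lamc1: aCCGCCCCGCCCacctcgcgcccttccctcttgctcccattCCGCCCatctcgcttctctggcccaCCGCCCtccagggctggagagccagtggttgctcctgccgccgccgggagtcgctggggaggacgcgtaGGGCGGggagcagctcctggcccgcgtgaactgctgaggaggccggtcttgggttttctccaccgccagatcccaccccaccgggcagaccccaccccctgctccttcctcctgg
TATAAA lies in the windows of Ogn and Col1a2, and that of Lamc1 holds GGGCGG at 5 places and no TATAAA. In 250 bases before the start, TATAAA was found for 5 of the 30 matrix genes with a window and for 12.9% of 33469 windows in all. CCAAT was found for 10 of 30 and 34.0%, and GGGCGG for 15 of 30 and 30.5%. A match of letters is a description of the window and says nothing about binding there. In the genome Dcn lies next to Lum (chromosome 7), Col3a1 next to Col5a2 and Col4a4 next to Col4a3 (both chromosome 9).

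After 12 weeks on control chow, Lamc1 was lower than after 6 weeks in both tissues. In the hippocampus it was 7.32 and 7.36 on the control arrays of 6 weeks and 6.80 and 6.94 on those of 12 weeks. The groups did not overlap, as for 12 of the 39 genes and 47.6% of all genes with 1 symbol. The difference was -0.47 (SE 0.090, adjusted p = 0.0187). In the cortex it was 7.44 and 7.56 after 6 weeks and 7.003 and 7.04 after 12 weeks, a difference of -0.48 (SE 0.090, adjusted p = 0.0101). The groups were again without overlap, as for 13 of the 39 genes and 54.9% of all genes with 1 symbol. Lamc1 was the only gene of the 39 that passed in either tissue, where 4.27% of all clusters passed in the hippocampus and 8.85% in the cortex, so that 1 of 39 was no more than the background.

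On curcumin chow, a comparison added after the values had been seen, Lamc1 was 7.45 and 7.29 after 6 weeks and 6.71 and 6.89 after 12 weeks in the hippocampus, a difference of -0.57 (SE 0.090, adjusted p = 0.0128). It was again the only gene of the 39 that passed there, beside 2.27% of all clusters. In the cortex it was 7.33 and 7.52 after 6 weeks and 7.20 and 7.28 after 12 weeks, a difference of -0.18 (SE 0.090, adjusted p = 0.370). There 0 of the 39 genes passed limma and 3.24% of all clusters did (2 of 39 and 16.6% of all genes with 1 symbol at an unadjusted p under 0.05), with Col11a2 at 0.24 (adjusted p = 0.219) showing the largest moderated t. All 8 arrays of 12 weeks lay below all 8 arrays of 6 weeks for Lamc1, from 6.71 to 7.28 against 7.29 to 7.56. The nearest arrays were very close, and the share of all genes separated in this way was not taken. The change of its curcumin effect between the durations was 0.29 (SE 0.13, adjusted p = 0.310) in the cortex and did not pass.

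In fits that leave out an array, the lone array of a group is assumed to vary like the arrays of the other groups. The Lamc1 calls by duration rested on few arrays. On control chow in the hippocampus the call was lost without any 1 of its 4 arrays, control 6 weeks replicate 1 or 2 and control 12 weeks replicate 1 or 2 (adjusted p = 0.110, 0.117, 0.0799 and 0.0601 in that order). In the cortex it was lost without control 6 weeks replicate 2 or control 12 weeks replicate 1 (adjusted p = 0.0862 and 0.0808). On curcumin chow in the hippocampus it was lost without curcumin 6 weeks replicate 1 or curcumin 12 weeks replicate 1 (adjusted p = 0.159 and 0.0708). The difference stayed negative in all of these fits. The comparisons by duration on control chow and those of curcumin with control use the same control arrays.

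Other laminin chains had negative estimates too, which did not pass. On control chow all 7 laminin chains had a negative difference between 12 and 6 weeks in the hippocampus (-0.47 to -0.06) and in the cortex (-0.71 to -0.09), where 49.5% and 55.2% of all genes with 1 symbol had one. On curcumin chow 5 of the 7 were negative in the hippocampus and 4 of the 7 in the cortex. The cortical estimates on control chow came to -0.71 for Lama3 (SE 0.25, adjusted p = 0.114), an epithelial alpha chain, and to -0.20 for Lamc3 (SE 0.067, adjusted p = 0.0926). Sparc gave -0.68 there (SE 0.23, adjusted p = 0.0914) and Col11a1 -0.28 (SE 0.11, adjusted p = 0.151). In the hippocampus on control chow Lum gave 0.31 (SE 0.11, adjusted p = 0.168), Lama5 -0.28 (SE 0.10, adjusted p = 0.170), Fmod -0.59 (SE 0.31, adjusted p = 0.371) and Fn1 -0.44 (SE 0.24, adjusted p = 0.388). Without cortex control 6 weeks replicate 1, which left the array rich in olfactory bulb markers as the only control of 6 weeks, 7 of the 39 genes passed in the cortex (Col11a1, Col12a1, Fn1, Lama3, Lamb2, Lamc1 and Sparc), beside 9.27% of all clusters. Without cortex control 12 weeks replicate 2, 2 did (Lamc1 and Lum), beside 3.71%. Without cortex control 6 weeks replicate 2 itself, 0 of the 39 passed, beside 1.83%, and the estimates were -0.30 for Lama3, -0.41 for Sparc and -0.11 for Col11a1. In the hippocampus, without control 6 weeks replicate 2, the array rich in choroid plexus markers, they were -0.21 for Fmod, -0.21 for Fn1 and -0.17 for Lama5. Lama5 was also -0.17 there without control 12 weeks replicate 2.

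None of the 39 genes passed the test in any of the 4 comparisons of curcumin with control chow. Their estimates were mostly small, from -0.74 for Sparc in the cortex after 6 weeks to 0.34 for the same gene there after 12 weeks. In the hippocampus limma called 0 of 39 genes after 6 weeks and 0 of 39 after 12 weeks beside 0% and 0.00366% of all clusters. At an unadjusted p under 0.05 there were 0 and 1, beside 1.52% and 5.49% of all genes with 1 symbol. In the cortex it called 0 of 39 at both durations beside 0.106% and 3.24% of all clusters. At an unadjusted p under 0.05 there were 3 at each duration, fewer by share than among the 14324 genes with 1 symbol, of which 2102 passed after 6 weeks and 2572 after 12 weeks. The arrays of the 2 diets did not overlap for 9 and 8 of the 39 genes in the hippocampus after 6 and 12 weeks, where 35.0% and 27.4% of all clusters did so. In the cortex this held for 9 genes at each duration, where 36.3% and 44.3% of all clusters did so.

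**Figure D4:**
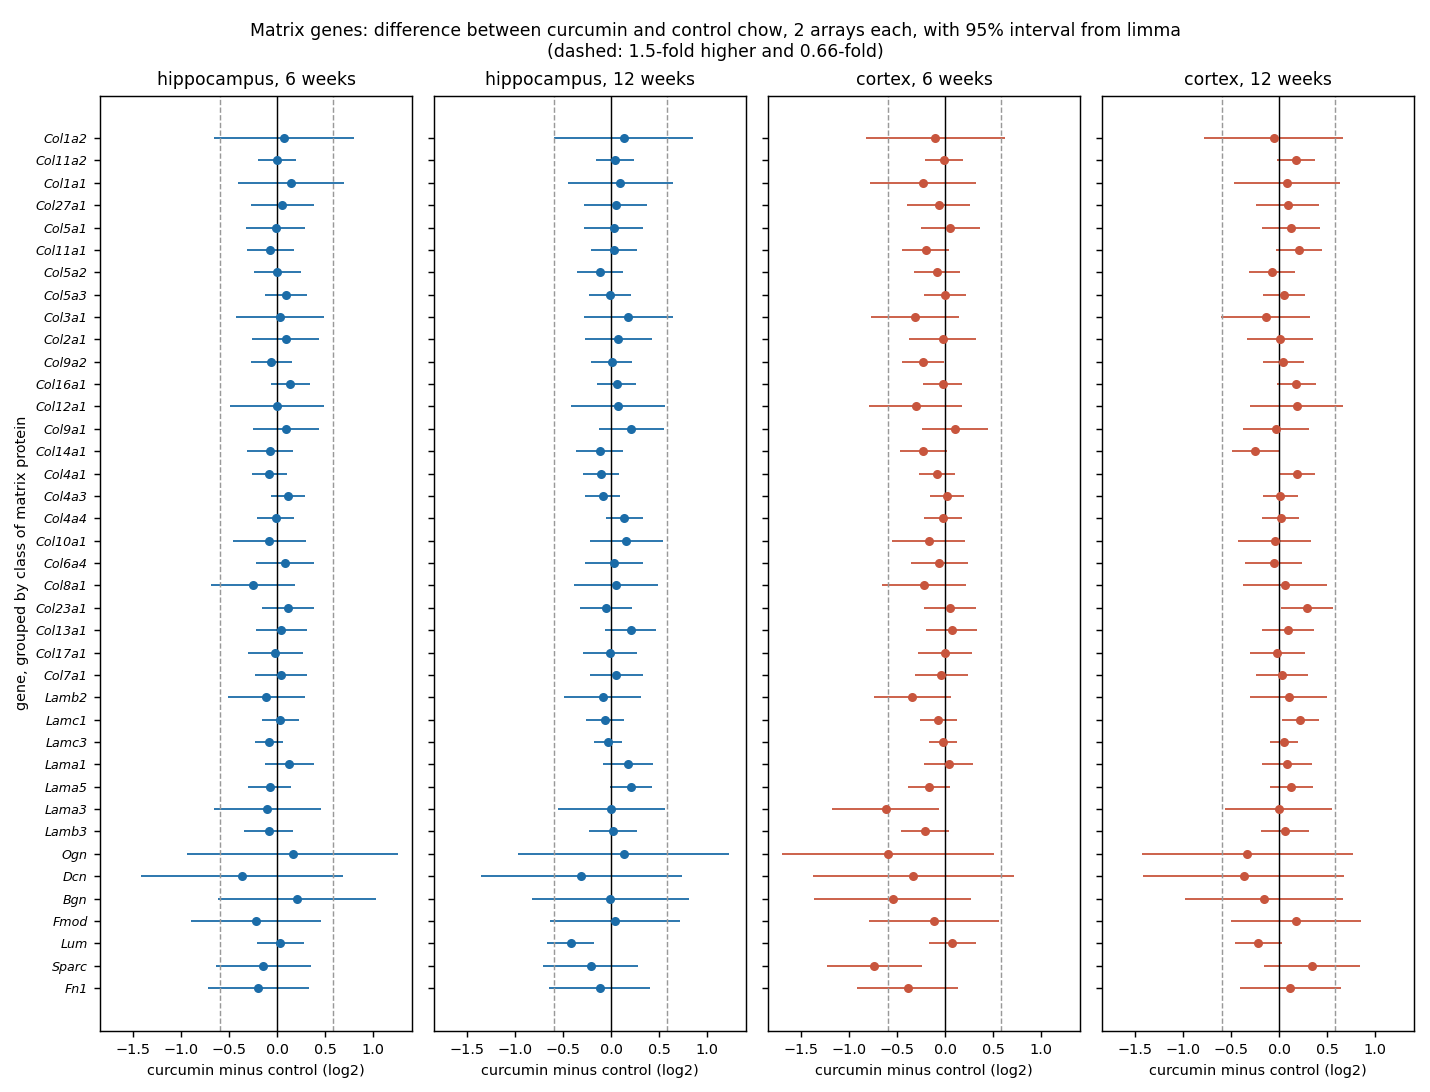
Difference between curcumin and control chow (log2, 2 arrays each) for the 39 matrix genes in the 4 comparisons, with 95% intervals from limma and dashed lines at 1.5-fold higher and 0.66-fold. In the cortex after 6 weeks most points lie left of 0, with Sparc at -0.74 furthest left, while none of the 39 genes passed in any panel.

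The precision differed between genes. The 95% intervals reached 0.15 to 1.10 to either side of the estimate (median 0.28). They lay wholly within the limits of 1.5-fold higher and 0.66-fold for 29 of the 39 genes in the hippocampus after 6 weeks, 29 after 12 weeks, 26 in the cortex after 6 weeks and 29 after 12 weeks. For Ogn in the cortex after 6 weeks the interval ran from -1.70 to 0.50, so that changes of that size could not be detected with these arrays.

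Sparc was the gene of the 39 with the largest moderated t in the cortex after 6 weeks. For PCR the study reports hippocampal genes, which it picked as changed on these arrays. Its list of primers names Sparc and gives no tissue, duration or direction. The direction of Sparc here is therefore no independent evidence. Sparc was 10.47 and 11.01 on control chow and 10.21 and 9.78 on curcumin chow. The curcumin arrays lay below the control arrays, and the difference was -0.74 (SE 0.23, adjusted p = 0.214). Without cortex control 6 weeks replicate 2 it was -0.47 (adjusted p = 0.808). After 12 weeks Sparc was 10.06 on both control arrays and 10.07 and 10.74 on the curcumin arrays, a difference of 0.34 that rested on curcumin replicate 2, without which it was 0.01. On the 8 hippocampal arrays it stayed between 9.90 and 10.35.

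The change of the curcumin effect on Sparc from 6 to 12 weeks in the cortex was 1.08 (SE 0.32, adjusted p = 0.125). It passed without cortex control 6 weeks replicate 1 (1.35, adjusted p = 0.0483) or cortex curcumin 12 weeks replicate 1 (1.42, adjusted p = 0.0455), and was 0.75 without cortex curcumin 12 weeks replicate 2 (adjusted p = 0.354).

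In the cortex after 6 weeks 32 of the 39 genes had a negative difference, with a median of -0.09, against 49.4% of all genes with 1 symbol. Lama3 gave -0.62 (SE 0.25, adjusted p = 0.351), and -0.22 without cortex control 6 weeks replicate 2. Col9a2, of the fibril surface, gave -0.23 (SE 0.098, adjusted p = 0.366), and Col14a1, of the same class, -0.23 (SE 0.11, adjusted p = 0.447). Lamb2 gave -0.34 (SE 0.18, adjusted p = 0.504). It was 7.17 and 7.87 on control chow and 7.12 and 7.23 on curcumin chow. The estimate was 0.01 without control replicate 2, and without control replicate 1 it was -0.69 and passed (adjusted p = 0.0247). On the same 4 arrays the mean of the meningeal list was 6.49 and 7.19 on control chow and 6.61 and 6.58 on curcumin chow, and 19 of its 21 genes had a negative difference with 0 called. The mean of the olfactory bulb list was 7.05 and 8.10 on control chow and 6.50 and 6.46 on curcumin chow (7 of 7 genes negative, 0 called), and that of the red blood cell list 6.39 and 7.28 against 6.13 and 5.97 (5 of 5 negative, 0 called). Of 10 neuronal genes 2 passed as higher on curcumin chow, Slc17a7 by 0.81 and Syn1 by 0.50, beside 0.133% of all genes with 1 symbol. Other cell type lists differed on these arrays too. The oligodendrocyte list averaged 9.79 and 9.31 on control chow and 8.28 and 9.25 on curcumin chow, and the microglia list 7.51 and 7.75 against 7.31 and 7.26. The neuronal list went the other way, with 10.13 and 10.09 against 10.20 and 10.38. The part of all these lists in the matrix values was not tested.

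The fold threshold of the study's methods (curcumin over control of 1.5 and above, or 0.66 and below) was passed in the cortex after 6 weeks by 2 of the 39 genes (Lama3 and Sparc), beside 1.25% of all clusters. It was passed by 0 of 39 in the hippocampus after 6 and 12 weeks and in the cortex after 12 weeks, beside 0.121%, 0.230% and 0.827% of all clusters. It has no error term.

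In the hippocampus after 12 weeks Lum (lumican) had the largest moderated t. It was 5.11 and 5.23 on control chow and 4.75 on both curcumin arrays. The groups did not overlap, as for 28.9% of all genes with 1 symbol. The difference was -0.42 (SE 0.11, unadjusted p = 0.00298 from limma), but it did not pass the adjustment over all clusters (adjusted p = 0.738). Lum is a dim row, with a mean of 4.86 over 16 arrays, and the study listed it among its changed genes on these arrays, so that its direction is no independent evidence. After 6 weeks Lum was 4.78 and 4.95 on control and 4.90 and 4.88 on curcumin chow, a difference of 0.03. The change of its curcumin effect between the durations was -0.45 (SE 0.16, adjusted p = 0.99996). In the cortex Lum differed by 0.07 after 6 weeks and by -0.22 after 12 weeks (SE 0.11, adjusted p = 0.409), and the latter was -0.03 without control 12 weeks replicate 1.

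The other genes with the largest moderated t in the hippocampus after 12 weeks were Lama5 at 0.21 (adjusted p = 0.988), Col13a1 at 0.20, Col4a4 at 0.14 and Lama1 at 0.17 (adjusted p = 0.9995 for each of the last 3). After 6 weeks Col16a1 gave 0.13, Col4a3 0.11, Col8a1 -0.26, Lamc3 -0.08 and Lama1 0.13 (adjusted p = 0.9999 for each). Without the 2 hippocampal arrays rich in choroid plexus markers, Col16a1 and Col4a3 gave -0.01 each. In the cortex after 12 weeks Lamc1 gave 0.22 (SE 0.090, adjusted p = 0.261), Col23a1 0.29 (SE 0.12, adjusted p = 0.293), Col14a1 -0.25 (SE 0.11, adjusted p = 0.311) and Col4a1 0.18 (SE 0.085, adjusted p = 0.337). None of these passed.

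The curcumin effect itself was not shown to differ between durations or tissues for any of the 39 genes. Between 6 and 12 weeks limma called 0 of 39 in the hippocampus and 0 of 39 in the cortex beside 0% and 1.47% of all clusters. At an unadjusted p under 0.05 there were 1 and 4, beside 3.35% and 17.5% of all genes with 1 symbol. Between hippocampus and cortex it called 0 of 39 after 6 weeks and 0 of 39 after 12 weeks beside 0% and 0.190% of all clusters. At an unadjusted p under 0.05 there were 0 and 2, beside 6.83% and 12.3% of all genes with 1 symbol. Besides Sparc and Lamc1, the change between durations in the cortex was 0.41 for Col11a1 (adjusted p = 0.235), 0.27 for Col4a1 (0.315) and 0.29 for Lama5 (0.376). In the hippocampus it was 0.29 for Lama5, -0.20 for Col4a3, 0.15 for Col4a4 and 0.30 for Col8a1 (adjusted p = 0.99996 for each). Without cortex control 6 weeks replicate 1, Col4a1, Lamb2 and Sparc passed in the cortex, beside 3.81% of all clusters. Without cortex control 6 weeks replicate 2 the changes were 0.24 for Col11a1 and 0.13 for Col4a1, and without cortex curcumin 12 weeks replicate 2 that of Lama5 was 0.18. The difference between the tissues (hippocampus minus cortex) was 0.59 for Sparc, 0.52 for Lama3, 0.75 for Bgn, 0.17 for Col9a2 and 0.16 for Col16a1 after 6 weeks (adjusted p = 0.960 for Sparc and 0.9998 for the others). These rested on single arrays, since leaving out 1 of the 8 gave 0.33 to 0.86 for Sparc, 0.11 to 0.92 for Lama3 and 0.26 to 1.24 for Bgn, each with the lowest value without cortex control 6 weeks replicate 2 and the highest without replicate 1. For Col9a2 the range was 0.03 to 0.32 and for Col16a1 0.08 to 0.24, lowest without hippocampus control 6 weeks replicate 2 and highest without replicate 1. After 12 weeks it was -0.30 for Col4a1 (adjusted p = 0.396), -0.29 for Lamc1 (0.449), -0.34 for Col23a1 (0.551), -0.56 for Sparc (0.628) and -0.20 for Lum (0.769).

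Proteins that work with collagens and laminins were examined through 6 lists, of matrix receptors, basement membrane partners, collagen processing enzymes, matrix degradation, matrix growth factor signals and other matrix proteins. In the cortex after 12 weeks of curcumin, Agrn, a proteoglycan of basement membranes that binds laminin, was the only 1 of 5 measured basement membrane partners that passed. The study's list of PCR primers names Agrn too, again without tissue, duration or direction, while its text speaks of hippocampal genes. The direction of Agrn here is therefore no independent evidence. Agrn was 7.98 and 7.97 on control chow and 8.60 on both curcumin arrays, a difference of 0.62 (SE 0.070, adjusted p = 0.00279). The groups were far apart, and the call held without any 1 of the 4 arrays, although not when limma was given only these 4 (adjusted p = 0.121) or without the 2 cortical arrays with the highest Ogn (adjusted p = 0.0529). The change of its curcumin effect from 6 to 12 weeks in the cortex was 0.74 (SE 0.099, adjusted p = 0.0137), which did not pass without cortex control 6 weeks replicate 2, cortex curcumin 12 weeks replicate 2 or cortex control 12 weeks replicate 1 (adjusted p = 0.0580, 0.0586 and 0.0875). Its curcumin effect after 12 weeks also differed between hippocampus and cortex, by -0.70 (SE 0.099, adjusted p = 0.0297), beside 0.182% of all genes with 1 symbol. Leaving out 1 array gave -0.74 to -0.66, and that call was lost each time. In the comparison of curcumin with control in the cortex after 12 weeks, the 7 laminin chains gave -0.01 to 0.22 and none passed.

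Among the other lists in the same comparison, Itgb1, the beta 1 integrin chain shared by most laminin and collagen receptors, fell by 0.39 (SE 0.089, adjusted p = 0.0414) as 1 of 19 receptors. P3h3, named as a prolyl 3-hydroxylase, rose by 0.53 (SE 0.12, adjusted p = 0.0353) as 1 of 26 processing enzymes. Ltbp4, which holds latent TGF-beta in the matrix, rose by 0.45 (SE 0.070, adjusted p = 0.00845) as 1 of 18 growth factor signals, and the brain proteoglycan gene Ncan rose by 0.30 (SE 0.068, adjusted p = 0.0404) as 1 of 26 other matrix proteins. Of 16 degradation genes 0 passed. In this comparison 4.03% of all genes with 1 symbol passed, so the counts of these lists are no result about them as groups. All 4 calls were lost without control replicate 1 (adjusted p = 0.309 for Itgb1, 0.284 for P3h3, 0.105 for Ltbp4 and 0.249 for Ncan). Those of P3h3, Ltbp4 and Ncan were also lost without curcumin replicate 2 (0.194, 0.0584 and 0.240), those of Itgb1 and P3h3 without curcumin replicate 1 (0.193 and 0.0821), and those of Itgb1 and Ncan without control replicate 2 (0.0751 and 0.129). In the other 3 comparisons of curcumin with control, 0 genes of these 6 lists passed. For the change of the curcumin effect from 6 to 12 weeks in the cortex, the degradation gene Mmp16 passed at -0.49 (SE 0.098, adjusted p = 0.0385). There 1.85% of all genes with 1 symbol passed. Leaving out 1 array gave -0.55 to -0.43 for Mmp16, and its call was lost in most of these fits.

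Between the tissues the wider matrix lists did not move in 1 direction. Of all genes with 1 symbol 12.9% passed there, so calls within these lists are no result about matrix genes as a group. Of the other matrix proteins 4 were higher and 1 was lower in the hippocampus, with fibrillin 1 (Fbn1) higher by 0.83 (SE 0.068, adjusted p = 2.33e-05), the link protein gene Hapln4 higher by 0.54 (SE 0.087, adjusted p = 0.00248) and periostin (Postn) at -0.27 (SE 0.060, adjusted p = 0.0163). Fbn1 was 7.07 to 7.61 on the hippocampal arrays and 6.30 to 6.81 on the cortical arrays, without overlap. Among the growth factor signals Ccn2, a target of TGF-beta, gave -0.41 (SE 0.047, adjusted p = 2.79e-04) and Tgfb3 gave 0.44 (SE 0.099, adjusted p = 0.0165), and 1 passed as higher and 3 as lower. The basement membrane partners Agrn and Egflam gave -0.31 (SE 0.035, adjusted p = 2.44e-04) and -0.25 (SE 0.050, adjusted p = 0.00833), 2 of 5. Of the processing enzymes P4ha3 gave -0.34 (adjusted p = 0.00325) and Tll1 0.30 (adjusted p = 0.00107), 1 in each direction, of the receptors Bcam gave -0.21 (adjusted p = 0.0274, lost in 9 of 16 fits without 1 array) as 1 of 19, and of the degradation genes 0 passed.

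Between 6 and 12 weeks on control chow, 9.39% of all genes with 1 symbol passed in the cortex and 3.85% in the hippocampus. The difference between the tissues was not tested. Of 19 receptors 3 passed as lower after 12 weeks, Itgb1 at -0.36 (SE 0.089, adjusted p = 0.0309), the laminin receptor chain Itga6 at -0.39 (SE 0.10, adjusted p = 0.0398) and the collagen receptor Ddr1 at -0.64 (SE 0.16, adjusted p = 0.0300), and all 3 lost their call without any 1 of the 4 arrays. Itgb1 was 8.94 and 8.99 on the cortical control arrays of 6 weeks and 8.69 and 8.53 on those of 12 weeks. The groups did not overlap, as for 54.9% of all genes with 1 symbol. P4hb, a subunit of the collagen prolyl 4-hydroxylase, gave -0.43 (SE 0.092, adjusted p = 0.0165) as 1 of 26 processing enzymes, and Ltbp3 gave -0.48 (SE 0.13, adjusted p = 0.0423) as 1 of 18 growth factor signals. Of 16 degradation genes, the metalloproteinase genes Mmp17 and Mmp16 passed as higher (0.59 and 0.29) and Adamts4, which cuts brain proteoglycans, as lower (-0.81). Adamts4 lost its call without any 1 of the 4 arrays, and Mmp17 and Mmp16 without control 6 weeks replicate 2 or either control array of 12 weeks (adjusted p = 0.0953 to 0.259). Of 26 other matrix proteins Hapln1 passed as higher, by 0.60 (SE 0.14, adjusted p = 0.0223), and of 5 basement membrane partners 0 passed. P4hb, Ltbp3 and Hapln1 lost their calls without control 6 weeks replicate 2 (adjusted p = 0.121, 0.277 and 0.163) or either control array of 12 weeks (adjusted p = 0.0555 to 0.252). The 2 cortical control arrays of 6 weeks were also the highest in olfactory bulb markers (7.05 and 8.10), and the part of these in the cortical differences by duration was not tested. In the hippocampus Ncan passed as lower at -0.30 (SE 0.068, adjusted p = 0.0321) and 0 genes of the other 5 lists passed. Ncan lost its call there without control 6 weeks replicate 1 or 2 or control 12 weeks replicate 2 (adjusted p = 0.165, 0.165 and 0.170).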

How the data were processed

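RNA from pooled hippocampus and cortex was hybridised to 16 Affymetrix rat arrays (2 per group). The authors normalised the arrays with RMA in Affymetrix Expression Console and deposited log2 values per transcript cluster. The sources used here give no versions. The small number of arrays limits the precision. Of 27342 clusters, 15097 had 1 symbol, 323 several and 11922 none in the platform annotation, and all 39 matrix genes matched RefSeq. A row naming Lamc3 with another gene was not used.

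The 8 group means were fitted with limma 3.58.1 (R 4.3.3) to all clusters and arrays, with Benjamini-Hochberg adjustment over all clusters in each of 13 comparisons. The fit was tested on simulated data. Tables were made with Python 3.11.15 and pandas 2.3.3. The matrix genes, the 17 marker and pathway lists and the tests were chosen with earlier results of these data known, and the 2 comparisons by duration on curcumin chow were added after values had been seen. Lum, Sparc and Agrn were picked by the study on these arrays. Named in each comparison are matrix genes that passed, or, where fewer than 5 passed, the 5 with the largest absolute moderated t, with Lum and Sparc throughout, the 2 brightest genes of each class, genes of the same class to account for them, and at most 4 passing genes per list.

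Alternatives were quantile normalisation, removal of the dimmest 25% of clusters, limma's array weights, a mean-variance trend fitted robustly, blocking on the replicate number, the arrays of a comparison alone, averaging the rows of a gene, adjustment over 1 row per named gene, a random effect of the rat pool, the study's fold threshold and each array left out in turn. Leaving out the 2 hippocampal arrays with the highest Ttr or the 2 cortical arrays with the highest Ogn, and crossed replicate numbers, were added after seeing the data. Within a group the labels speak of biological replicates, and the study's methods also of duplicates.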

Additional observations from a re-analysis of the deposited data

How the results depend on the processing

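Of 211 alternative counts of passing matrix genes, 178 stayed within 1.5 times the count reported, and of 1839 alternative values of single genes 1606 kept their direction and side of the threshold, 209 lost a call, 16 gained one and 8 changed sign. The cause was not tested. The study's fold threshold in place of limma gave 2 genes for curcumin in the cortex after 6 weeks, beside 1.70% of all genes with 1 symbol. For duration on control chow it gave 2 in the cortex (2.72%) and 0 in the hippocampus (0.684%), and 0 on curcumin chow in the hippocampus (0.517%). It gave 2 for the change of the curcumin effect in the cortex and 3 for its difference between the tissues after 6 weeks. For these last 2 comparisons no share of all genes was taken. The arrays of a comparison alone gave 0 genes for duration on control chow in each tissue and 0 on curcumin chow in the hippocampus, with fewer arrays behind the spread. Without the 2 hippocampal arrays with the highest Ttr, 0 genes passed between the tissues, 0 for duration in the hippocampus on control chow and 0 on curcumin chow, and the curcumin difference in the hippocampus after 6 weeks became -0.0092 for Col16a1, -0.012 for Col4a3 and 0.029 for Sparc. Without the 2 cortical arrays with the highest Ogn, 0 genes passed for duration on control chow in the cortex, and the curcumin difference of Lamb2 in the cortex after 6 weeks became 0.0073. Leaving out 1 array at a time gave 1 to 6 genes between the tissues, 0 to 7 and 0 to 1 for duration on control chow in cortex and hippocampus, 0 to 1 on curcumin chow in the hippocampus, 0 to 3 for the change of the curcumin effect in the cortex, 0 to 1 for curcumin in the cortex after 6 weeks and 0 in the other comparisons. In these fits the curcumin difference after 6 weeks ran from -0.52 to 0.0028 for Col8a1 and from -0.053 to 0.12 for Lum in the hippocampus, and from -0.69 to 0.0073 for Lamb2 and from -0.0032 to 0.15 for Lum in the cortex. With the replicate number as a block, 3 genes passed between the tissues, 1 for duration on control chow in each tissue and 0 in every comparison of curcumin with control, as without it. Same-numbered arrays of the 2 diets did not deviate together (correlation of deviations 0.040, -0.058, -0.43 and 0.011 in hippocampus and cortex after 6 weeks and then after 12 weeks), nor did those of hippocampus and cortex throughout (0.12 and 0.16 on control chow and -0.15 and 0.15 on curcumin chow after 6 and 12 weeks), so the numbers were not taken as pairs. With a random effect of the rat pool 4 genes passed between the tissues. Apart from the fold threshold, these counts stand without the share of all genes, so they are no result about the matrix genes as a group. Crossing the numbers in the hippocampus after 12 weeks also gave 0 genes. Half-widths of the 95% intervals for curcumin reached 1.10, with no adjustment over all clusters. A call needed that adjustment, so changes of that size and also larger ones could be missed for the most variable genes.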
